A study of Mus musculus with 24 samples.

Results

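The genes described here are 10 enzymes and chaperones that fold, hydroxylate and crosslink collagen: Serpinh1, P4ha1, P4ha2, P4hb, Plod1, Plod2, Plod3, Lox, Loxl1 and Loxl2. They are 10 of the 18669 genes in a table of read counts from mouse quadriceps femoris muscle, and all 10 were among the 13754 genes that reached at least 2 counts in at least 10 of the 24 libraries. The group was chosen because Serpinh1, P4ha1 and Plod1 had higher counts after the drug HSP990. The values after HSP990 are therefore a description of the members, with no test, whereas heat shock (HS) and the comparisons of genotypes in untreated control mice used other animals and were tested.

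Collagen chains are made in the endoplasmic reticulum, where lysyl hydroxylases (Plod1, Plod2 and Plod3) and prolyl 4-hydroxylase (catalytic chains P4ha1 and P4ha2, with the disulphide isomerase P4hb as the shared partner chain) modify them before they wind into a triple helix. Serpinh1 encodes HSP47, a collagen-specific chaperone that binds the finished helix and is classed among the heat shock proteins. Outside the cell, the copper enzymes Lox, Loxl1 and Loxl2 oxidise lysine residues so that collagen fibres, and in the case of Loxl1 chiefly elastin, become crosslinked. In skeletal muscle most fibrillar collagen is laid down by fibroblasts of the connective tissue around the fibres.

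The study asked how the heat shock response runs in living mice, how it differs in a model of Huntington's disease, and how far it depends on the transcription factor HSF1. RNA was sequenced from 24 mice in 12 groups of 2, on a CBA by C57BL/6 background. For HS, anaesthetised mice were wrapped, apart from the head, in a pad and held at 41.5 °C for 15 minutes, and control mice were wrapped at 36.9 °C for 21 minutes. HSP990, an inhibitor of the chaperone HSP90, was given by mouth at 12 mg/kg as a suspension in methyl cellulose and saline, and vehicle mice received what the labels describe as saline alone. Muscle was taken 4 hours after treatment in all groups. Wild type and R6/2 mice were 12 weeks old, and Hsf1-/- mice were 10 weeks old in the HS experiment and 8 weeks old in the HSP990 experiment. R6/2 mice carry a transgene of the first exon of human huntingtin with an expanded CAG repeat under the human promoter, expressed in most tissues. Hsf1-/- mice lack functional HSF1 in all tissues from conception, and Hsf1 reads were lowered but not absent in them, at 21.1 to 29.0 CPM (counts adjusted for the depth of each library) against 52.9 to 68.6 in wild type mice.

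Depth ran from 22450177 to 46599238 counts per library, and the rarest member in any library, Loxl1, still had 54 counts. CPM here are scaled by TMM, which equalises the bulk of genes between libraries. The TMM factors were 1.19 to 1.395 in the 8 R6/2 libraries and 0.808 to 0.954 in the other 16, and the summed level of 9 muscle fibre markers (Acta1, Ckm, Myh4 and others) was 46370 to 91400 CPM in R6/2 libraries and 194000 to 260100 CPM elsewhere. All 9 were detected in every library. Counts of 4 Y-linked genes summed to 0 to 4 in the wild type and R6/2 mice of the HS experiment and to 3916 to 9392 in all other libraries. Comparisons of Hsf1-/- with wild type mice in the HS experiment thus also differ in Y-linked expression. So do comparisons of wild type or of R6/2 mice across the 2 experiments. The Hsf1-/- mice differ in age from the others and between the experiments. These differences cannot be told apart from genotype or experiment. The labels describe separate animals, and with 2 in a group the error estimates rest mainly on the spread shared over all 12 groups.

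Because HSF1 acts by binding heat shock elements, runs of alternating GAA and TTC units, the promoters are shown for the 4 members with the largest log2 fold change after HS in wild type mice among those with a window. The sequences are RefSeq windows on GRCm38.p6, of which the 250 bases before the annotated start are printed 5′ to 3′ on the gene's strand. Capitals mark every match, on either strand, to the hypoxia response element core (ACGTG or GCGTG) and to a 2-unit heat shock element (GAANNTTC or TTCNNGAA). Windows were used for 6 of the 10 members, and Plod2, Lox, Loxl1 and Loxl2 are named only.
Serpinh1, chr7:99353240-99353489, minus strand: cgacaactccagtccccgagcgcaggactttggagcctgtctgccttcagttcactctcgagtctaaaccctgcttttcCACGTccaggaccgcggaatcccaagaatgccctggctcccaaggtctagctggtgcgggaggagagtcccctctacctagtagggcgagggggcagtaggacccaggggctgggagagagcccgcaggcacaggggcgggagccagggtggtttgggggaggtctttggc
P4ha1, chr10:59323046-59323295, plus strand: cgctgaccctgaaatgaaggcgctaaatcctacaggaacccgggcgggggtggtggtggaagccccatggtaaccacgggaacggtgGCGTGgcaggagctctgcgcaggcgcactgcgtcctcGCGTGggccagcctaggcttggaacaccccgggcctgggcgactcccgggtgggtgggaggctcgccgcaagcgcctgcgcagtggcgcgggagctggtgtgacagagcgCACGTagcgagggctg
P4ha2, chr11:54100674-54100923, plus strand: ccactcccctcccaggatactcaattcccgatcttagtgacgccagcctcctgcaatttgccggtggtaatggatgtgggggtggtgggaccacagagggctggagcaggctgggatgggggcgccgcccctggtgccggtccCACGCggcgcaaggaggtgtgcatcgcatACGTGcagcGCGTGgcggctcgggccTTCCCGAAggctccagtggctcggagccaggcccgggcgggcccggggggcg
Plod1, chr4:147936777-147937026, minus strand: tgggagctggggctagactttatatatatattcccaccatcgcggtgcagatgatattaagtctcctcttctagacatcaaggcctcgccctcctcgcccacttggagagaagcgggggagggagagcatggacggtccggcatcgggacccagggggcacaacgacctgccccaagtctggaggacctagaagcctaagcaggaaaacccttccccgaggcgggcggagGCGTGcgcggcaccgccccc
In the whole window, which runs 50 bases past the start, none of the 6 windows held a heat shock element of 3 alternating units, which 0.603% of 32851 mouse promoter windows held, nor the endoplasmic reticulum stress element (CCAAT and CCACG at a fixed spacing), which 0.119% held. The 2-unit form was in P4ha2, as TTCCCGAA at 52 bases before the start, and in Plod1, as GAAGTTTC at 43 bases after it, and 15.1% of all windows held this form. The hypoxia core was in all 6 windows, and 43.8% of all windows held at least 1. There were 3 matches each in P4ha1 and P4hb, 4 each in P4ha2 and Plod3, and fewer in Serpinh1 and Plod1. A match of letters shows no binding, and the absence of one covers these windows alone.

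**Figure D1:**
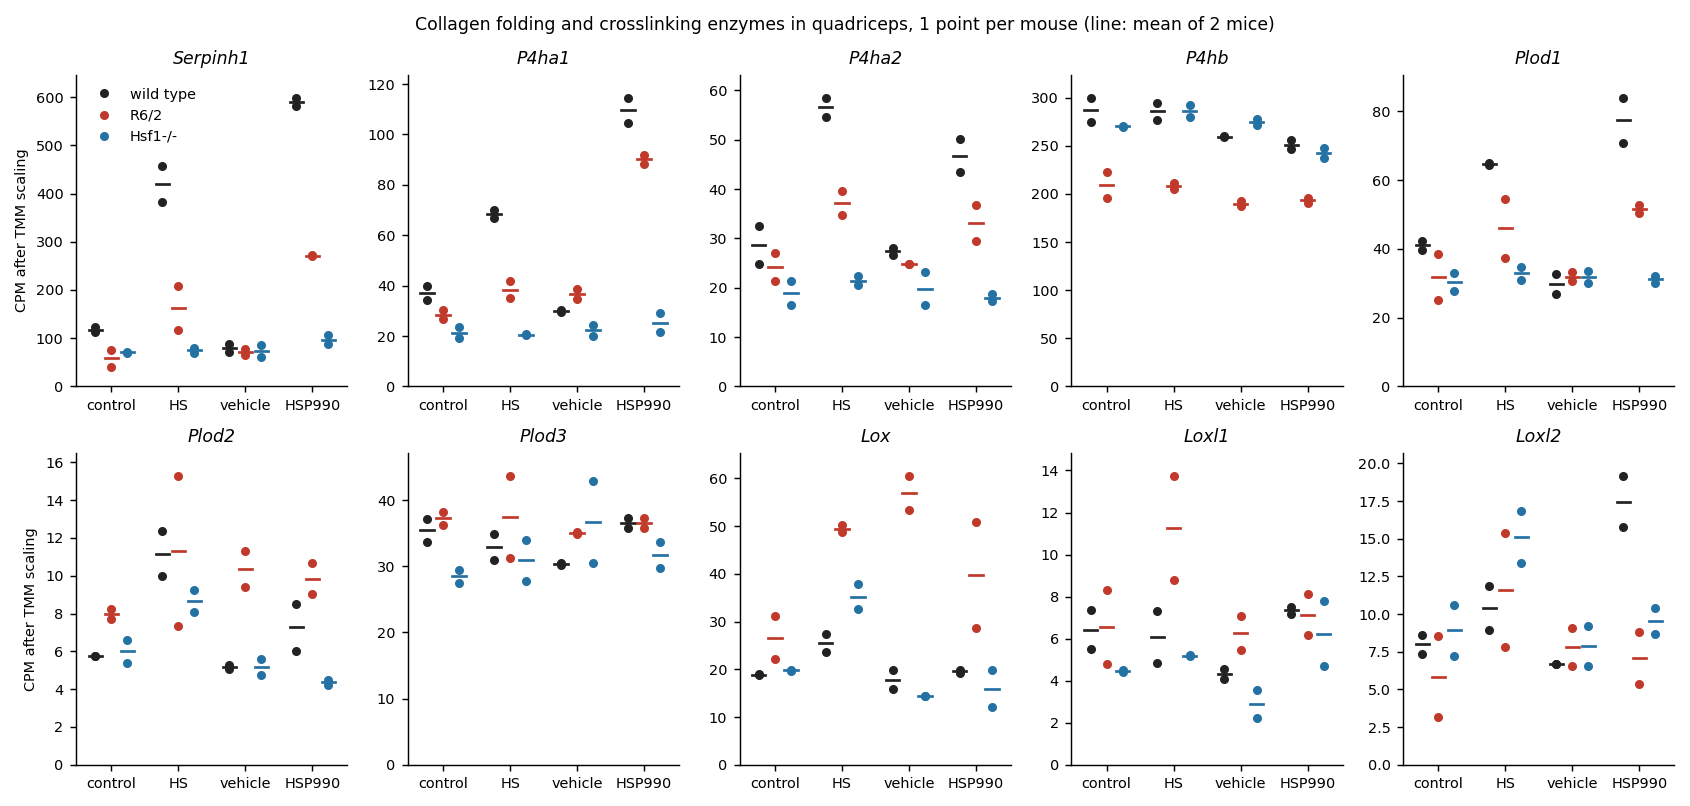
TMM-scaled CPM of the 10 genes in each of the 24 mice, 1 point per mouse and a line at the mean of 2 mice, by treatment (horizontal axis) and genotype (colour), with a linear vertical axis from 0 for each gene. Serpinh1 reached 581 and 599 CPM in wild type mice after HSP990 and stayed at 106.5 CPM or below in every Hsf1-/- mouse.

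Levels of different genes are compared here per kilobase of the longest coding transcript, over the 4 wild type mice that received neither HS nor HSP990. P4hb, which also serves as a general disulphide isomerase, was the most abundant at 95.6 CPM per kb (range 90.6 to 104.9), followed by Serpinh1 at 41.1 (29.7 to 51.4). The ranges of these 2 genes did not overlap each other or those of any other member. P4ha2 (12.4 CPM per kb), Plod1 (10.9), Plod3 (10.02) and P4ha1 (8.31) formed a middle tier in which neighbouring ranges overlapped. Lox stood alone at 4.10 CPM per kb (3.55 to 4.43). Loxl1 (1.61 CPM per kb), Plod2 (1.49) and Loxl2 (1.42) were lowest, with overlapping ranges. These are the levels of whole tissue, in which fewer cells of a type and less RNA per cell cannot be told apart.

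In wild type mice, HS was followed by higher levels of 3 of the 10 members: Serpinh1 3.57-fold, P4ha2 1.97-fold and P4ha1 1.83-fold. These are the collagen chaperone and the 2 catalytic chains of prolyl 4-hydroxylase, while their partner P4hb and the lysyl oxidases were not called. Adjusted p-values come from quasi-likelihood tests in edgeR, corrected over 13754 genes by Benjamini and Hochberg, with a threshold of 0.05, fold changes are on the log2 scale unless called -fold, and values after ± are standard errors. By that test 2.06% of all genes were called in this comparison. Both HS mice lay above both controls for 7 of the 10 members, against 23.1% of all genes.

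Serpinh1 was at 112 and 123 CPM in the wild type control mice and at 382 and 457 CPM after HS. The groups were far apart, and the log2 fold change was 1.83 ± 0.27 (n = 2 per group, edgeR adjusted p = 0.00147). P4ha1 had 34.5 and 40.05 CPM in control mice against 69.85 and 66.9 CPM after HS, a log2 fold change of 0.87 ± 0.15 (edgeR adjusted p = 0.00555). The lower HS mouse was well above the higher control mouse. P4ha2 gave 24.8 and 32.5 CPM in control mice and 54.7 and 58.5 CPM after HS, a log2 fold change of 0.98 ± 0.18 (edgeR adjusted p = 0.00872). All 3 calls were lost without wild type control replicate 1, where the log2 fold changes were 1.77, 0.77 and 0.80 with adjusted p of 0.056, 0.13 and 0.17, and that of P4ha2 was also lost without wild type HS replicate 2 (0.93, adjusted p = 0.084).

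Among the lysyl hydroxylases, Plod1 and Plod2 had HS mice above control mice without passing the test. Plod1, which hydroxylates lysines of the helical part of collagen, was at 39.75 and 42.3 CPM in control mice and 64.5 and 64.9 CPM after HS (log2 0.66 ± 0.19, edgeR adjusted p = 0.093). Plod2, which modifies the chain ends used for crosslinks, was at 5.76 and 5.75 CPM in control mice and 9.99 and 12.35 CPM after HS (log2 0.96 ± 0.27, edgeR adjusted p = 0.080). Both passed with DESeq2 (adjusted p = 0.027 and 0.024) and when only these 4 mice were fitted (0.011 and 0.028). Plod3, which also adds sugars to hydroxylysine, had overlapping groups (log2 -0.11 ± 0.16). Its exons overlap those of Znhit1 on the opposite strand and of Mir702, and whether counting used the strand is not given in the sources used here, so its counts may hold other reads.

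P4hb and the lysyl oxidases gave smaller differences in wild type mice. P4hb was at 274 and 300.1 CPM in control mice and 295 and 277 CPM after HS, and the 95% interval of its log2 change ran from -0.20 to 0.19. Lox was at 18.9 and 18.8 CPM in control mice and 23.6 and 27.4 CPM after HS (log2 0.44 ± 0.24). Loxl2 was at 7.375 and 8.62 CPM in control mice and 8.91 and 11.85 CPM after HS (0.37 ± 0.40), and Loxl1 overlapped (-0.08 ± 0.33). For Lox and Loxl2 both HS mice were the higher ones, and no lysyl oxidase gene was called, with edgeR adjusted p from 0.54 to 0.97.

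In R6/2 mice none of the 10 members passed the test after HS. An unadjusted p under 0.05 in edgeR was found for 7 members and for 1117 of the 13754 genes tested. Of all genes 6 were called, 0.0436%, in this comparison, and both HS mice exceeded both controls for 5 members against 15.1% of all genes. DESeq2 called 2 members, Serpinh1 and Lox. Serpinh1 was at 40.35 and 76.4 CPM in control mice and 209 and 118 CPM after HS, 2.80-fold higher (log2 1.49 ± 0.27, edgeR adjusted p = 0.053). The groups did not overlap, although the mice within each group were far apart. Serpinh1 passed without R6/2 control replicate 2 (log2 2.02, adjusted p = 0.022), without R6/2 HS replicate 2 (1.84, 0.0036), with no filter on low counts (1.49, 0.034) and with DESeq2 (1.48, 6.4e-05). Without R6/2 HS replicate 1 its value was 1.01 (adjusted p = 0.40) and without R6/2 control replicate 1 it was 1.10 (0.27).

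The remaining members of the folding machinery had smaller values in R6/2 mice. P4ha1 was at 26.7 and 30.3 CPM in control mice and 35.1 and 41.8 CPM after HS (log2 0.43 ± 0.15, edgeR adjusted p = 0.39), and P4ha2 at 27.05 and 21.3 against 39.65 and 34.8 (0.62 ± 0.18, 0.25). For both genes the HS mice were the higher pair. Plod1 (0.53 ± 0.19), Plod2 (0.50 ± 0.26), Plod3 (0.01 ± 0.16) and P4hb (-0.01 ± 0.09) overlapped between groups. Plod1 passed without R6/2 HS replicate 2 (0.77, adjusted p = 0.041).

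The lysyl oxidase genes had log2 fold changes after HS of 0.89 ± 0.24 (Lox), 0.79 ± 0.32 (Loxl1) and 0.99 ± 0.39 (Loxl2) in R6/2 mice, with edgeR adjusted p of 0.21, 0.49 and 0.47. Lox, at 31.1 and 22.1 CPM in control mice and 50.2 and 48.8 CPM after HS, separated the groups. Loxl2 did not, with 3.17 and 8.53 CPM in control mice and 15.4 and 7.79 CPM after HS. When 1 mouse was left out the value of Loxl2 ran from 0.42 (without R6/2 HS replicate 1) to 1.87 (without R6/2 control replicate 2), and that of Loxl1 from 0.43 to 1.24 without the same mice.

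In Hsf1-/- mice no member was called after HS, and the values of Serpinh1, P4ha1 and Plod1 lay near 0. Of all genes 1 was called, 0.00727%. Serpinh1 was at 72.4 and 68.5 CPM in control mice and 80.8 and 69.7 CPM after HS (log2 0.10 ± 0.27, 95% interval -0.49 to 0.68). P4ha1 was at 19.1 and 23.7 CPM in control mice and 20.3 and 20.8 CPM after HS (log2 -0.06 ± 0.15, interval -0.39 to 0.28). The groups overlapped for both, as they did for P4ha2 (0.18 ± 0.18) and Plod1 (0.11 ± 0.19). With DESeq2, too, 0 members were called. In edgeR 1 member, Lox, had an unadjusted p under 0.05, as did 1211 of the 13754 genes tested.

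Both HS mice were above both control mice for 5 members in Hsf1-/- mice, against 20.8% of all genes: P4hb, Plod2, Lox, Loxl1 and Loxl2. Lox had the greatest value, with 19.7 and 19.9 CPM in control mice and 37.85 and 32.5 CPM after HS (log2 0.83 ± 0.24, edgeR adjusted p = 0.21). Plod2 was at 5.375 and 6.62 CPM in control mice and 9.22 and 8.065 CPM after HS (0.53 ± 0.27, edgeR adjusted p = 0.62). Lox thus had a positive value in each genotype (0.44, 0.89 and 0.83), in none of which it was called.

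**Figure D2:**
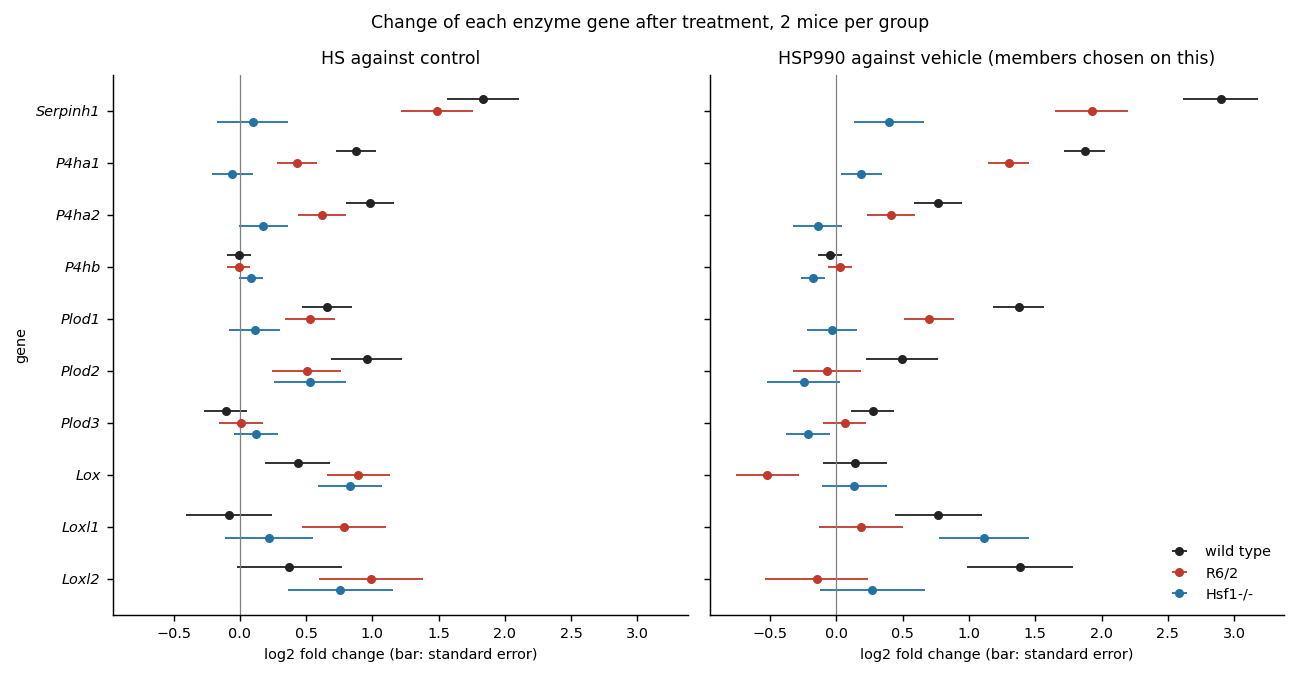
Log2 fold change with its standard error (horizontal axis) for each gene in wild type, R6/2 and Hsf1-/- mice, after HS against control (left) and after HSP990 against vehicle (right, the comparison on which the group was chosen), 2 mice per group. The Serpinh1 value falls from 1.83 in wild type to 0.10 in Hsf1-/- mice after HS, and from 2.90 to 0.40 after HSP990.

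The HS responses of the genotypes were compared as interactions. For R6/2 against wild type no member was called, and 0.0727% of all genes were. The difference in log2 fold change was -0.35 ± 0.37 for Serpinh1 (95% interval -1.16 to 0.47), -0.44 ± 0.21 for P4ha1 (-0.91 to 0.02) and -0.36 ± 0.26 for P4ha2 (-0.92 to 0.20). All 3 intervals include 0 and are wide, so equal responses are not shown. No member had an unadjusted p under 0.05 in edgeR, against 669 of the 13754 genes tested, and DESeq2 called 0 members.

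For Hsf1-/- against wild type the differences were larger: -1.74 ± 0.38 for Serpinh1 (95% interval -2.56 to -0.92), -0.93 ± 0.22 for P4ha1 (-1.41 to -0.46) and -0.80 ± 0.26 for P4ha2 (-1.37 to -0.24). None passed the adjustment in edgeR (adjusted p = 0.12, 0.19 and 0.92), in a comparison where 0.16% of all genes were called. These 3 members had an unadjusted p under 0.05 in edgeR, as did 511 of the 13754 genes tested. DESeq2 called Serpinh1 and P4ha1 (adjusted p = 0.0018 and 0.019), and a fit of the groups compared alone called Serpinh1 (0.0043). Plod1 (-0.55 ± 0.27) and Plod2 (-0.43 ± 0.38) were lower as well, and Lox, Loxl1, Loxl2, Plod3 and P4hb had positive values that were not called.

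As a reference for both treatments, the inducible HSP70 genes Hspa1a and Hspa1b and the HSP90 gene Hsp90aa1 rose after HS in wild type mice by 7.11, 7.97 and 3.89 on the log2 scale and in R6/2 mice by 4.15, 4.39 and 1.65. Leaving out R6/2 control replicate 2 ended the R6/2 call of Hspa1a (adjusted p = 0.070) and that of Hsp90aa1, which was also not called without R6/2 HS replicate 1 (0.14) or with library size alone (0.052). Of 13 cytosolic heat shock genes, 11 were called higher after HS in wild type, 3 in R6/2 and 0 in Hsf1-/- mice. Their median change in R6/2 mice was 0.52 against 2.19 in wild type, and the 10 collagen genes had medians of 0.58 and 0.55. In Hsf1-/- mice the medians were 0.10 and 0.15. The near-equal medians of the collagen genes hold shifts both ways. Serpinh1 (1.49 against 1.83), P4ha1 (0.43, 0.87), P4ha2 (0.62, 0.98), Plod1 (0.53, 0.66) and Plod2 (0.50, 0.96) had smaller values in R6/2 than in wild type mice. Lox (0.89, 0.44), Loxl1 (0.79, -0.08), Loxl2 (0.99, 0.37) and Plod3 (0.01, -0.11) had larger ones, and P4hb was near 0 in both. The members chosen on HSP990 include a chaperone of the heat shock family, so the lists are not independent.

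After HSP990 the 3 genes that led to the choice of the group had the following values, given as a description. In wild type mice Serpinh1 was at 87.25 and 70.9 CPM with vehicle and at 599 and 581 CPM with HSP990, 7.46-fold higher (log2 2.90 ± 0.28). P4ha1 was at 30.4 and 29.5 CPM with vehicle and 115 and 105 CPM with HSP990 (log2 1.87 ± 0.16), and Plod1 at 32.7 and 26.95 CPM against 84.0 and 70.8 CPM (1.38 ± 0.19). All 3 separated the groups by more than any mouse differed from its partner. Among all genes 1.85% were called after HSP990 in wild type mice.

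The other members were not all alike in wild type mice given HSP990. Loxl2 was at 6.66 and 6.71 CPM with vehicle and 15.8 and 19.2 CPM with HSP990 (log2 1.39 ± 0.40), P4ha2 had a value of 0.77 ± 0.18, and Loxl1 one of 0.77 ± 0.33. Plod2 (0.49 ± 0.27), Plod3 (0.27 ± 0.16), Lox (0.14 ± 0.24) and P4hb (-0.05 ± 0.09) had the smaller values. Both treated mice lay above both vehicle mice for 8 of the 10 members, against 24.3% of all genes, a count that the choice of the members bears on. The 2 exceptions were Lox, whose groups overlapped, and P4hb, for which both treated mice were the lower ones.

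Side by side in wild type mice, the log2 values after HS and HSP990 were 1.83 and 2.90 for Serpinh1, 0.87 and 1.87 for P4ha1, 0.66 and 1.38 for Plod1, and 0.37 and 1.39 for Loxl2. For P4ha2 (0.98 and 0.77), Plod2 (0.96 and 0.49) and Lox (0.44 and 0.14) the HS value was the larger. The treatments have separate control groups and the members were chosen on HSP990, so the differences were not tested. Vehicle and control wild type mice were not at the same level: both vehicle mice lay below both control mice for 8 of the 10 members, against 27.9% of all genes, for instance 70.9 to 87.25 against 112 to 123 CPM for Serpinh1.

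In R6/2 mice HSP990 was followed by 273 and 269.6 CPM of Serpinh1, against 77.95 and 64.9 CPM with vehicle (log2 1.93 ± 0.27). P4ha1 had 88.4 and 91.9 CPM against 38.6 and 34.7 CPM (1.30 ± 0.15), and Plod1 had 52.8 and 50.5 CPM against 30.6 and 33.2 CPM (0.70 ± 0.19). The treated mice were thus the higher pair for each of the 3 genes, in a comparison where 1.43% of all genes were called. With P4ha2 (0.41 ± 0.18) and Plod3 (0.06 ± 0.16) they made 5 members with both treated mice higher, against 21.2% of all genes. This count includes the 3 genes on which the group was chosen, so it is no support for a response of the members. Lox went the other way, with 53.4 and 60.5 CPM with vehicle and 50.8 and 28.6 CPM with HSP990 (-0.52 ± 0.24), and Loxl2 had a value of -0.15 ± 0.39 against 1.39 in wild type mice.

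In Hsf1-/- mice Serpinh1 was at 86.6 and 60.9 CPM with vehicle and 106.5 and 87.6 CPM with HSP990 (log2 0.40 ± 0.27). P4ha1 was at 20.2 and 24.3 CPM against 29.1 and 21.5 CPM (0.19 ± 0.15), and Plod1 at 33.7 and 30.01 CPM against 32.15 and 30.13 CPM (-0.03 ± 0.19). P4ha1 and Plod1 overlapped, and the treated Serpinh1 values exceeded the higher vehicle mouse by less than the vehicle mice differed from each other. In this comparison 0.218% of all genes were called, and 18.7% had both treated mice above both vehicle mice, as Serpinh1 and Loxl1 did. The choice of the members bears on this count too. Loxl1 was at 3.58 and 2.24 CPM with vehicle and 7.78 and 4.685 CPM with HSP990 (1.11 ± 0.34), the highest value of the 10 in this genotype, while P4hb (-0.18 ± 0.09) and Plod2 (-0.25 ± 0.27) had both treated mice below.

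In control mice of the HS experiment, R6/2 muscle had less Serpinh1 and P4hb than wild type muscle. Serpinh1 was at 40.35 and 76.4 CPM in R6/2 and 112 and 123 CPM in wild type mice (log2 -1.01 ± 0.27, edgeR adjusted p = 0.021), and P4hb at 196 and 223 CPM against 274 and 300.1 CPM (-0.46 ± 0.09, edgeR adjusted p = 0.0037). Of all genes 12.4% were called in this comparison, against 2 of the 10 members, and both R6/2 mice were below both wild type mice for 4 members against 28.9% of all genes. The 4 were Serpinh1, P4hb, P4ha1 (-0.39 ± 0.15, adjusted p = 0.11) and Plod1 (-0.36 ± 0.19, adjusted p = 0.24). Plod2 (0.47 ± 0.27) and Lox (0.50 ± 0.24) had both R6/2 mice above, without passing.

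The direction of these genotype values depends on the scaling. With library size alone the median of all genes stood at 0.55 for R6/2 against wild type, against 0.01 with TMM, and on that scale P4hb turned to 0.08 (adjusted p = 0.50), Serpinh1 was at -0.48 (0.16), and Plod2, Plod3 and Lox were called higher (1.01, 0.62 and 1.04). Serpinh1 and P4hb lay below the median of all genes under both scalings. A change of scaling moves all genes nearly alike, so this adds no separate check. Without R6/2 control replicate 1, the mouse with the lower Serpinh1 value, Serpinh1 was at -0.62 (adjusted p = 0.28) and P4hb at -0.37 (0.076), and both calls were also lost without wild type control replicate 2 (0.11 and 0.052) and in a fit of these 4 mice alone (0.097 and 0.12). Without wild type control replicate 1 Serpinh1 was lost (-1.08, adjusted p = 0.074). Without R6/2 control replicate 2, Plod1 (-0.71) and Loxl2 (-1.34) were called in addition.

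**Figure D3:**
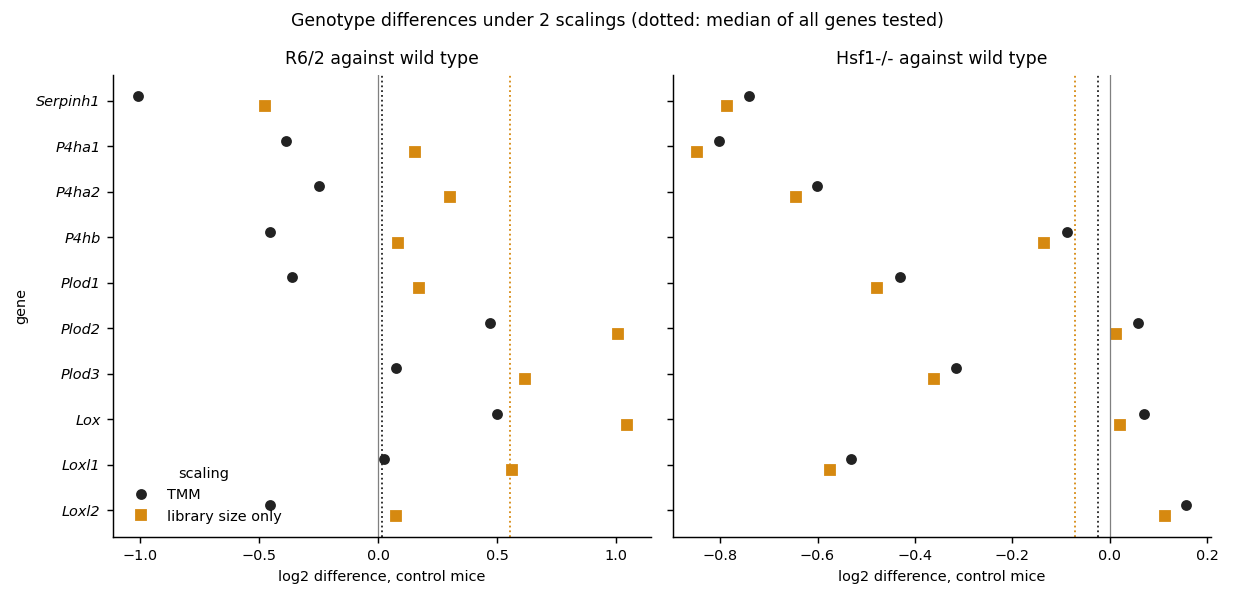
Log2 difference of each gene in control mice of R6/2 (left) and Hsf1-/- (right) against wild type (horizontal axis, the 2 panels on their own scales) with TMM scaling (circles) and with library size alone (squares), dotted lines marking the median of all genes tested under each. In R6/2 mice every gene shifts right with library size alone, P4hb from -0.46 to 0.08, and in Hsf1-/- mice the 2 scalings differ little.

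In vehicle mice, given as TMM-scaled values, P4hb was lower in R6/2 muscle, at 192 and 188 CPM against 259 and 260.0 CPM. Serpinh1 overlapped between genotypes, at 77.95 and 64.9 CPM in R6/2 and 87.25 and 70.9 CPM in wild type mice. Both statements depend on the scaling, as in control mice. The TMM factors were 1.395 and 1.351 in the R6/2 vehicle libraries and 0.856 and 0.867 in the wild type vehicle libraries. Both R6/2 vehicle mice were above both wild type vehicle mice for 5 members, against 32.6% of all genes: P4ha1, Plod2, Plod3, Lox and Loxl1. Lox was farthest apart, with 53.4 and 60.5 CPM in R6/2 and 15.85 and 19.8 CPM in wild type mice, and Plod2 was at 9.395 and 11.3 against 5.09 and 5.27 CPM. Over all 4 treatments Lox was at 22.1 CPM or more in every R6/2 mouse and at 27.4 CPM or less in every wild type mouse.

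Hsf1-/- control mice had less P4ha1 than wild type control mice, 19.1 and 23.7 CPM against 34.5 and 40.05 CPM, the 1 member called (log2 -0.80 ± 0.15, edgeR adjusted p = 0.018). The call rested on every mouse, as it was lost without any 1 of the 4, with adjusted p from 0.062 to 0.21. Serpinh1 (-0.74 ± 0.27, adjusted p = 0.15) and P4ha2 (-0.60 ± 0.18, adjusted p = 0.10) were not called by edgeR. DESeq2 called P4ha2 in addition (0.047), and a fit of these 4 mice alone called Serpinh1 (0.019). Among all genes 1.93% were called, and both Hsf1-/- mice were below both wild type mice for 7 members, against 28.5% of all genes. The age and the Y-linked counts named above differ between these groups too.

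In vehicle mice both Hsf1-/- animals were below both wild type animals for 4 members, P4ha1, P4ha2, Lox and Loxl1, against 20.9% of all genes. Both were above for P4hb (means of 274.7 against 259.6 CPM) and Plod3 (36.7 against 30.3 CPM). In control mice both Hsf1-/- animals were below both wild type animals for P4hb and Plod3. P4ha1 was at 20.2 and 24.3 CPM in Hsf1-/- and 30.4 and 29.5 CPM in wild type mice, so that it was the lower in both experiments, in which Hsf1-/- mice were 10 and 8 weeks old. Y-linked genes were expressed in both of these vehicle groups. Serpinh1 overlapped, with 86.6 and 60.9 CPM in Hsf1-/- and 87.25 and 70.9 CPM in wild type vehicle mice.

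Across the 12 group means of log2(CPM + 0.5) the members fell into sets, a description in which the points share the treatments on which the group was chosen. Serpinh1 ran with Plod1 (Pearson's r = 0.98), P4ha1 (0.92) and P4ha2 (0.87), and Plod2 ran with Lox (0.86), while Serpinh1 and Lox were unrelated (0.05). P4hb followed neither set (0.03 with Serpinh1, -0.67 with Lox). Of 11092 other genes, those most like Serpinh1 were Uspl1 (0.96), Slc5a3 (0.96) and Nle1 (0.95). P4ha1 was most like Ahsa2 (0.98), Zbed3 (0.98) and Stip1 (0.98), and Plod1 like Hspe1 (0.96), Dnaja1 (0.95) and Nle1 (0.95). Stip1, Hspe1 and Dnaja1 encode an HSP90 co-chaperone, mitochondrial HSP10 and an HSP40.

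Other genes of collagen biosynthesis gave few calls. Of 33 that were tested, among them the prolyl 3-hydroxylases, the procollagen proteinases and the small proteoglycans, 1 was called after HS in wild type mice, the crosslinking transglutaminase Tgm2 (113 to 247 CPM, log2 1.12 ± 0.16, edgeR adjusted p = 0.0013), and 0 in R6/2 or Hsf1-/- mice. The median of the list after HS in wild type mice was -0.09, against 0.55 over the 10 enzymes and -0.01 over all genes. In R6/2 control mice Tgm2 (1.02) and the prolyl isomerase Fkbp7 (1.23) were called higher than in wild type and the procollagen proteinase Adamts3 (-1.84) lower. The call of Fkbp7 was lost without 3 of the 4 mice and that of Adamts3 without any 1 of the 4. Adamts3 was low, at a mean of 0.57 CPM in R6/2 and 2.05 CPM in wild type control mice. It was not called with library size alone (-1.305, edgeR adjusted p = 0.059). After HSP990 the list had 29 of 33 positive values and a median of 0.40 in wild type mice with 0 called, and in R6/2 mice Tgm2 fell by 1.11 (edgeR adjusted p = 0.0014).

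The procollagen chains themselves, the substrates of these enzymes, numbered 15 in the table. After HS in wild type mice 6 of 15 were positive with a median of -0.09, and after HSP990 all 15 were positive with a median of 0.88. By edgeR none was called in either comparison, nor after either treatment in R6/2 or Hsf1-/- mice. DESeq2 results are not given for genes of these lists that edgeR did not call. Over all genes, DESeq2 called 542 after HSP990 in wild type mice, against 255 in edgeR. The paper, which used DESeq2, listed extracellular matrix and collagen fibril organisation among the terms enriched in genes higher after HSP990 in wild type mice. The medians after HS were 0.38 in R6/2 and 0.24 in Hsf1-/- mice, with 14 of 15 positive in each. In R6/2 control mice 14 of the 15 were below wild type with TMM scaling, with a median of -0.75. Library size alone moved the median of all genes in this comparison from 0.01 to 0.55, so this median depends on the scaling. Col5a3 was called (-1.21 ± 0.38, edgeR adjusted p = 0.047) but not with library size alone (-0.67, 0.15) or without any 1 of the 4 mice.

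**Figure D4:**
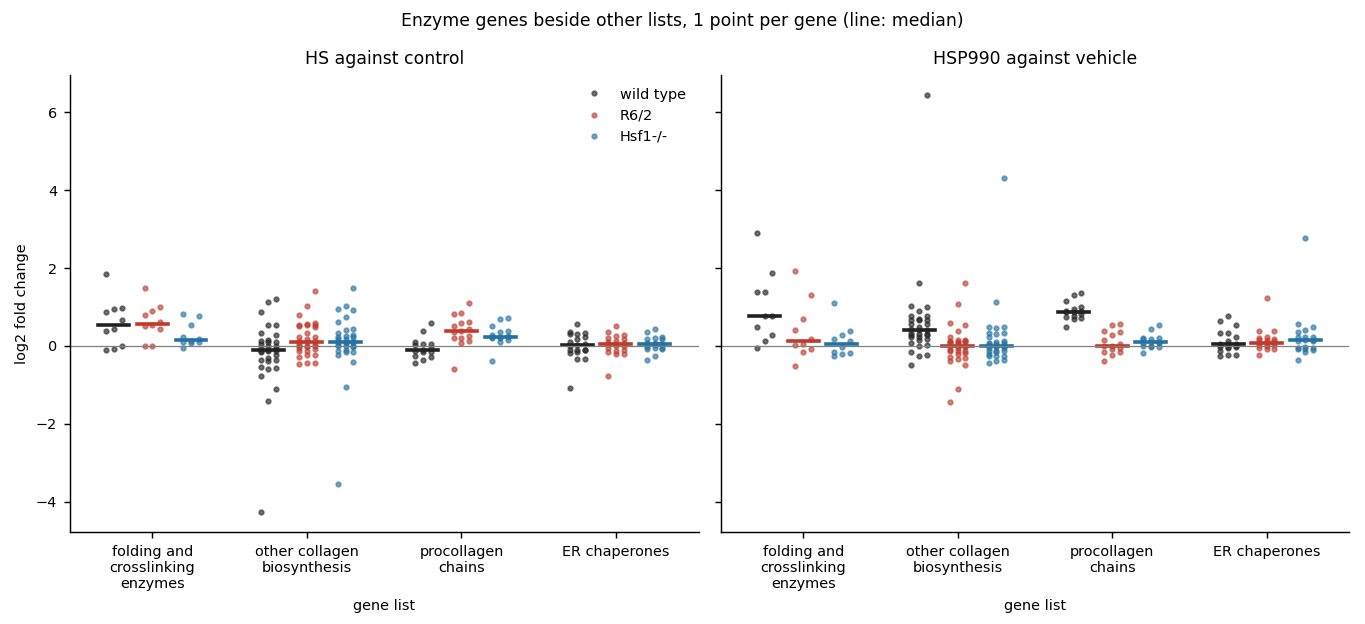
Log2 fold change of each gene (vertical axis) in 4 gene lists (horizontal axis) after HS (left) and HSP990 (right) in the 3 genotypes, 1 point per gene and a line at the median of each list. In wild type mice the folding and crosslinking enzymes had medians of 0.55 and 0.77 and the procollagen chains of -0.09 and 0.88, and the points beyond 4 on either side are the genes P4ha3 and Tll2. The enzymes were chosen because Serpinh1, P4ha1 and Plod1 rose after HSP990, so their median there is a description and is not comparable with the other lists.

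General chaperones and oxidoreductases of the endoplasmic reticulum, 20 in the list, had medians of 0.02, 0.05 and 0.04 after HS in wild type, R6/2 and Hsf1-/- mice with 0 called. After HSP990 the disulphide isomerase Pdia3 was called higher in wild type mice (0.63, edgeR adjusted p = 0.035) and the stress factor Ddit3 in Hsf1-/- mice (2.78, 0.0049). The Pdia3 call was lost without any 1 of the 4 mice and that of Ddit3 without 2 of the 4. In R6/2 control mice Xbp1 (-0.81) and Pdia6 (-0.46) were called lower. With library size alone Xbp1 was at -0.26 (edgeR adjusted p = 0.26) and Pdia6 turned to 0.08 (0.64). The Xbp1 call was also lost without 2 of the 4 mice and that of Pdia6 without 3 of the 4. Of 15 targets of the hypoxia-inducible factor, which is known to act on P4ha1 and Plod2, 0 were called after either treatment in any genotype, with medians between -0.06 and 0.17. In R6/2 control mice 4 of them, Ldha (-1.92), Hk2 (-1.001), Pgk1 (-0.87) and Vegfa (-0.71), were lower than in wild type, of which Pgk1 (-0.33) and Vegfa (-0.17) were not called with library size alone, nor without 1 mouse (adjusted p up to 0.052 and 0.23). Among the ligands of TGF-beta, a growth factor that drives matrix genes, Tgfb2 was called higher after HSP990 in wild type mice (0.97, edgeR adjusted p = 0.0014) and Tgfb3 higher in R6/2 control mice (0.81, edgeR adjusted p = 0.0026). The Tgfb2 call was lost without 1 mouse (adjusted p up to 0.063).

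Marker genes of connective tissue cells stood as follows beside these values, and their part in the results was not tested. Among the fibroblast markers, Col1a1, Col1a2 and Col3a1 are also in the list of procollagen chains. Dcn and Lum are also in the list of other collagen biosynthesis genes, so the counts of these lists are not independent. The 10 fibroblast markers, among them Pdgfra, Dcn and Col1a1 and none of them at 0 in any library, summed to 2609 to 2926 CPM in wild type control and 2294 to 2728 CPM in wild type HS mice, with 2 of 10 positive. In Hsf1-/- mice the sum was 2548 to 2666 CPM after HS against 2089 to 2357 CPM in control mice, with 9 of 10 positive and a median log2 change of 0.17, and in R6/2 mice 1698 to 2693 CPM against 2206 to 2305 CPM, with 6 of 10 positive. With TMM scaling the control mice of both R6/2 and Hsf1-/- thus lay below those of wild type. Of 10 markers 1 and 2 were positive, beside the lower Serpinh1, P4hb or P4ha1 of these mice. For R6/2 this order depends on the scaling. With library size alone the median of all genes in that comparison stood at 0.55, against 0.01 with TMM. After HSP990 in wild type mice the sum was 2504 to 2625 CPM against 1840 to 1958 CPM with vehicle, with 9 of 10 positive, a median log2 change of 0.44 and 0 called. The sums were 1756 to 1944 CPM with HSP990 and 1906 to 2261 CPM with vehicle in R6/2 mice, and 1544 to 2558 and 1629 to 2163 CPM in Hsf1-/- mice. The 8 macrophage markers, none at 0 in any library, summed to 94.0 to 136 CPM with HSP990 and 62.6 to 63.7 CPM with vehicle in wild type mice, with 7 of 8 positive and Mrc1 (1.25) and Lyz2 (1.07) called, both of which were lost without any 1 of the 4 mice. In R6/2 mice they summed to 68.3 to 75.9 CPM with HSP990 and 87.5 to 120.5 CPM with vehicle, with 2 of 8 positive and Cd163 called lower (-1.63), a call also lost without any 1 mouse. The 8 endothelial markers summed to 612.1 to 620.6 CPM after HS and 520.9 to 541.7 CPM in control mice of wild type, with 5 of 8 positive, and to 647.5 to 718.5 CPM with HSP990 against 523.8 to 572.9 CPM with vehicle, with 6 of 8 positive. R6/2 mice had sums of 528.4 to 724.2 CPM after HS and 482.4 to 483.4 CPM in control mice, and Hsf1-/- mice of 624.1 to 726.9 and 587.5 to 703.7 CPM. The 6 adipocyte markers summed to 347 to 354.2 CPM in R6/2 control mice and 572 to 1490 CPM in wild type control mice, with 0 of 6 positive. No endothelial or adipocyte marker was called in any comparison of treatment or genotype. Of 7 markers of smooth muscle and pericytes, Cspg4 was lower in R6/2 (-0.85, and -0.32 and not called with library size alone) and Rgs5 higher in Hsf1-/- (1.25) than in wild type control mice. The Cspg4 call was lost without 3 of the 4 mice and that of Rgs5 without any 1 (adjusted p up to 0.30 and 0.26). This list had 0 called after either treatment, and its sum was 363.9 to 419 CPM with HSP990 against 330.2 to 334.9 CPM with vehicle in wild type mice. Of the 9 muscle fibre markers 6 were called lower in R6/2 control mice, from Acta1 (-2.31) to Ttn (-1.41), which stands beside every R6/2 comparison above.

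The genes lie, on NCBIM37 (mm9) with GENCODE vM1, at chr7:106493885-106501740 (Serpinh1), chr10:58786044-58836052 (P4ha1), chr11:53913597-53945167 (P4ha2), chr11:120421612-120434567 (P4hb), chr4:147283862-147310876 (Plod1), chr9:92437061-92503266 (Plod2), chr5:137462889-137472518 (Plod3), chr9:58135530-58161019 (Loxl1) and chr14:70008978-70095640 (Loxl2), and Lox lies on chromosome 18. All are annotated as protein-coding. No member had a second copy in that genome that matched at least 50% of its transcript at a divergence of 0.02 or less.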

How the data were processed

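Polyadenylated RNA from quadriceps femoris of 24 mice was made into strand-specific, paired-end libraries. The authors mapped the reads to mm9 with Bowtie and deposited raw counts per gene. The counting program and annotation are not given in the sources used here. Of the 18669 gene numbers, 18594 matched a symbol. The 13754 genes that reached 2 counts in 10 or more libraries were fitted together over 12 groups, with 12 residual degrees of freedom, by edgeR 4.0.16 (R 4.3.3; quasi-likelihood test, TMM scaling, Benjamini-Hochberg adjustment, threshold 0.05). Standard errors are the fold change over the root of F, and 95% intervals use 12 degrees of freedom. An exact permutation of 2 against 2 mice could not go below p = 0.333. DESeq2 1.42.0 (which the authors' notes also name), other scalings and filters, a replicate block and leaving out each mouse were the alternatives. Copies were sought with minimap2. Named genes are all members, up to 4 called genes per list with the largest change, 3 heat shock genes, and the 3 genes most correlated with Serpinh1, P4ha1 or Plod1 (mean of at least 1 CPM). The members and lists were chosen with earlier results of these data known. A result of the list of TGF-beta ligands and targets is not reported here.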

Additional observations from a re-analysis of the deposited data

Results flagged for a closer look

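Plod2 after HSP990 had values in opposite directions in wild type and Hsf1-/- mice. Both treated mice lay above both vehicle mice in wild type (log2 fold change 0.49) and below them in Hsf1-/- mice (-0.25). The difference between the genotypes was not tested, because the members were chosen on the HSP990 comparison. Plod2 was among the least abundant members, at 4.23 to 8.51 CPM in these 8 mice, and without wild type HSP990 replicate 2 its value was 0.22.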

How the results depend on the processing

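Of 850 values of members in tested comparisons under the alternatives, 774 kept their direction and side of the threshold, 39 changed sign, 21 newly passed and 16 no longer passed. After HS in wild type mice 3 members were called, 5 with DESeq2 and 5 with only the groups compared, which added Plod1 and Plod2, and 0 to 3 when 1 mouse was left out. In R6/2 mice 0 were called, 1 with no filter, 2 with DESeq2 and 0 to 2 without 1 mouse, and in Hsf1-/- mice 0 under every alternative. For the HS response of Hsf1-/- against wild type mice 0 were called, 2 with DESeq2 and 1 with only the groups compared, and for R6/2 against wild type 0 throughout. In control mice, R6/2 against wild type gave 2 calls, 0 with only the groups compared, 0 to 4 without 1 mouse, and 3 with library size alone that were other genes, and Hsf1-/- against wild type gave 1, 2 with DESeq2, 2 with only the groups compared and 0 without any 1 mouse. Where not stated above, the cause was not tested.

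The 39 changes of sign include those of R6/2 control mice with library size alone, which moves all genes up: P4ha1 0.15, P4ha2 0.30, P4hb 0.085, Plod1 0.17 and Loxl2 0.076. P4hb after HS in wild type was 0.0038 with RLE size factors, 0.0037 with DESeq2 and 7.9e-05 with only the groups compared. Plod3 after HS in R6/2 was -0.0011 with RLE, -0.096 with library size alone and -0.00053 with DESeq2, and the P4hb response of R6/2 against wild type was 0.026 with library size alone.

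When 1 mouse was left out, values after HS ran from -0.070 to 0.059 (P4hb) and -0.41 to 0.19 (Loxl1) in wild type, from -0.10 to 0.085 (P4hb), -0.12 to 0.94 (Plod2) and -0.25 to 0.23 (Plod3) in R6/2, and from -0.015 to 0.20 (Serpinh1), -0.20 to 0.10 (P4ha1), -0.0066 to 0.24 (Plod1) and -0.034 to 0.26 (Plod3) in Hsf1-/- mice. The response of R6/2 against wild type ran from -0.82 to 0.18 (Serpinh1), -0.093 to 0.092 (P4hb), -0.43 to 0.21 (Plod1) and -0.15 to 0.34 (Plod3). In control mice R6/2 against wild type ran from -0.43 to 0.37 (Loxl1) and -1.34 to 0.092 (Loxl2), and Hsf1-/- against wild type from -0.10 to 0.20 (Plod2) and -0.14 to 0.41 (Loxl2). A group left with 1 mouse was assumed to vary like the others.

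With the replicate number as a block, Plod2 after HS in wild type mice also passed (0.95, adjusted p = 0.045), and no other member call changed. The labels do not say that equal numbers pair mice, and the correlation of the paired differences ran from -0.20 to 0.24 over the comparisons. Over all genes, DESeq2 called 542 after HS in wild type (283 in edgeR), 127 in R6/2 (6) and 161 in Hsf1-/- mice (1), 542, 376 and 142 after HSP990 (255, 197 and 30), and 733 for Hsf1-/- against wild type control mice (266). For R6/2 control mice library size alone called 6010 and the groups compared alone 492 (1711). The median of all genes moved by more than 0.1 with library size alone after HS in wild type (-0.15) and R6/2 mice (-0.11), after HSP990 in Hsf1-/- mice (0.16), and in the R6/2 control comparison (0.55). With 2 mice in a group, differences that missed the threshold are not shown to be absent.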
